A study of Homo sapiens with 20 samples.

Results

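The 10 genes described here mark the epithelial identity of colorectal cells. They were chosen by name, as the rows whose symbol was EPCAM, CDH1, KRT8, KRT18, KRT19, CDX2, CLDN4, CLDN7, ELF3 or KLF5, and not by measured values. They are 10 of the 26485 gene rows in each of the 2 tables, and all 10 had the same row coordinates in both. Epithelial cells hold together through adherens junctions built on E-cadherin, tight junctions built on claudins, and desmosomes to which keratin filaments are anchored. CDX2 is a homeobox factor that sets intestinal identity, and ELF3 and KLF5 are transcription factors of epithelial cells. When epithelial cells turn mesenchymal, E-cadherin is lost, vimentin is gained, and repressors of the ZEB and SNAI families, which bind the DNA letters CACCTG, are known to shut epithelial genes.

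RNA was sequenced from nuclei of HCT116, a human colorectal carcinoma line labelled wild type, after depletion of ribosomal RNA with a directional library kit. The question was how a p53 response to Nutlin-3a, which frees p53 from its ligase MDM2, is altered by a bivalent stapled peptide meant to block p53 from binding Mediator, the coactivator complex of RNA polymerase II. The 4 groups were Nutlin-3a with peptide, Nutlin-3a with water, DMSO with peptide, and DMSO with water, with 5 libraries per group, 2 from experiment 1 and 3 from experiment 2. All cells were electroporated, peptide groups with 10 µM peptide and the others with water, and then stood for 3 hours in medium with 0.1% DMSO. Nutlin-3a was at 10 µM, and wells of peptide cells received a further 200 nM peptide in the medium. Only this cell line was used, and no label states whether replicates were separate cultures, so p-values measure the spread between libraries, which may be technical.

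Depth over the gene rows was 36717795 to 63896604 reads in the 8 libraries of experiment 1, and 18787172 to 47407746 in the 12 of experiment 2. Levels are given as reads per 1000000 reads of the rows (RPM). Ribosomal and other structural RNA made up 17.0 to 26.4% of the counted reads of experiment 1 but 1.67 to 5.29% of those of experiment 2, so a level in one experiment is not on the same footing as in the other. Replicate 2 of Nutlin-3a with water in experiment 1 stood apart. It had the most structural RNA of the 8 libraries, at 26.4% against 17.0 to 23.8% in the others, and the fewest reads on rows over 100 kb, at 10.1% against 14.8 to 20.3%. Across genes its correlation with replicate 1 was 0.955, while pairs of replicates in the remaining 3 groups of experiment 1 had 0.992 to 0.997. Its 10 members took 0.285% of reads, the highest of the 8 libraries. In experiment 2, replicates of a group correlated at 0.933 to 0.946 across genes, and libraries of different groups with the same replicate number deviated from their group means together, at correlations of 0.877 to 0.940.

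The deposited rows are spans on hg38 with introns. In 10 of 10 members the listed end, the higher coordinate, was the higher end of the coding part of the matched GENCODE transcript, as in 93.8% of coding rows. On the plus strand this is the side of the stop codon. On the minus strand (KRT8, KRT19, CDX2 and CLDN7) it is the side of the start codon, so those rows leave out the first bases of the transcript. The exonic part covered was 39.9% (ELF3) to 95.6% (KRT19). For comparison between genes, RPM was divided by the row's span in kilobases. The exonic part of the span differs widely, at 969 of 969 bases in CLDN4, 1686 of 7795 in KRT8 and 2773 of 96208 in CDH1. An order per kilobase of span is thus not an order per base of exon. KRT8, KRT18 and KRT19 have 50, 68 and 5 annotated pseudogenes, and how reads shared with them were counted is not given in the sources used here.

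Promoters of 3 members are printed because they differ in how often they hold the letters CACCTG. Whether ZEB or SNAI factors act on these genes was not tested. RefSeq promoters of GRCh38.p14, 250 bases before to 50 after a start, were matched by symbol for 6 of the 10 members. EPCAM, CDH1, KRT18 and KRT19 had no promoter to match, so nothing is said of the letters in theirs. The CACCTG letters, searched on both strands so that CAGGTG counts as well, are in capitals.
CLDN7 (chr17:7262429-7262728, minus strand): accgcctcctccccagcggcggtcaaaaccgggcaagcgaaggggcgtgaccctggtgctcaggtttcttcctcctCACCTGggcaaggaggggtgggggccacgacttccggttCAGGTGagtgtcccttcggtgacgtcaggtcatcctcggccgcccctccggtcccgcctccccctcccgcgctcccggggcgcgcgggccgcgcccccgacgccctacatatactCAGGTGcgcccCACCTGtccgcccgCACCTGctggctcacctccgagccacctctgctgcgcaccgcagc
ELF3 (chr1:202010337-202010636, plus strand): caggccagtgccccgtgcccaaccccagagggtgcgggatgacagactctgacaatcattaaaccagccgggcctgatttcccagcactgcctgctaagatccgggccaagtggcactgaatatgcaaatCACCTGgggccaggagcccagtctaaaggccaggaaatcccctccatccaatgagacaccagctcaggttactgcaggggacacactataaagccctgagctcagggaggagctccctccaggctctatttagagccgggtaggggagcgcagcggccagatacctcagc
CLDN4 (chr7:73830746-73831045, plus strand): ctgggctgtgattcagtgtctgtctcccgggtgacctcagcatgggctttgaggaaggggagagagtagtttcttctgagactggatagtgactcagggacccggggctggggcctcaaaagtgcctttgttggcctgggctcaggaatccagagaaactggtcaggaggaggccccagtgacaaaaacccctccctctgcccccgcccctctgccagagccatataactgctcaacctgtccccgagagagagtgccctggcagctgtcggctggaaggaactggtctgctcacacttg
CLDN7 held 5 such matches, ELF3 1 and CLDN4 0. Of all 35116 promoters of this length, 20.6% held at least 1 and 0.635% held 3 or more. The CLDN7 window starts from the start of the transcript matched to its row. The other CLDN7 promoter in the table and those of KRT8, CDX2 and KLF5 held 0 matches. Measured from the start of the transcript matched to the row, with upstream negative, their starts lay elsewhere. They lay at -735 (CLDN7), -19851 (KRT8), 1824 (CDX2), and -3816 and 213 bases (KLF5). Those of ELF3 and CLDN4 lay at 70 and 133 bases. A window far from the start of the matched transcript does not show the promoter of the transcript counted. A match is a string of letters and not a shown site.

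Members covered a wide range of levels per kilobase. The keratins of simple epithelia stood highest per kilobase of span. KRT8, the type II keratin (NM_002273, chromosome 12, 52897187 to 52904981, minus strand), had a median of 139 RPM per kilobase in experiment 1 and 207 in experiment 2. Its type I partner KRT18 (NM_000224, chromosome 12, 52949059 to 52952842, plus strand) had 116 and 208 RPM per kilobase. KRT19, a small type I keratin (NM_002276, chromosome 17, 41523617 to 41528247, minus strand), had 97.7 and 128 RPM per kilobase. All lay at percentiles of 97.9 to 98.8 of the tested rows by RPM per kilobase. Their ranges over libraries overlapped in both experiments, but the order within a library was steadier. KRT19 was the lowest of these keratins per kilobase in every library. KRT8 was the highest in every library except those numbered 1 of experiment 2, where KRT18 was the highest.

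The tight junction claudins came next. CLDN4 (NM_001305, chromosome 7, 73830863 to 73831831, plus strand, a single exon) had a median of 36.2 RPM per kilobase in experiment 1 and 69.2 in experiment 2, and CLDN7 (NM_001307, chromosome 17, 7259903 to 7262043, minus strand) had 26.8 and 77.7. Their ranges were separate in experiment 1, at 31.0 to 46.0 for CLDN4 and 24.3 to 29.8 for CLDN7, and overlapped in experiment 2. EPCAM, a homophilic adhesion molecule that binds claudin 7 (NM_002354, chromosome 2, 47369148 to 47386613, plus strand), had 5.06 and 21.3 RPM per kilobase. E-cadherin, CDH1 (NM_004360, chromosome 16, 68737292 to 68833499, plus strand), has the longest span of the 10 and had 0.523 and 0.563 RPM per kilobase. The EPCAM row overlaps that of MIR559 and the CDH1 row that of MIR7641-2.

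Of the transcription factors, KLF5, a zinc finger factor of proliferating crypt cells (NM_001730, chromosome 13, 73058792 to 73075886, plus strand), had a median of 2.75 RPM per kilobase in experiment 1 and 3.94 in experiment 2. ELF3, an ETS factor of epithelia (NM_004433, chromosome 1, 202010562 to 202015323, plus strand), had 2.50 and 8.09. CDX2 (NM_001265, chromosome 13, 27962068 to 27969006, minus strand) had 0.861 and 2.47. ELF3 and KLF5 overlapped in experiment 1, and in experiment 2 KLF5, at 2.15 to 4.79 RPM per kilobase, lay below ELF3, at 4.83 to 18.3, and overlapped CDX2. CDH1 had the lowest median per kilobase of span of the 10 in both experiments, at a percentile of 38.7 and 37.6 of the tested rows. By mean RPM the lowest of the 10 was CDX2, at 6.09 and 17.1, while CDH1 had 49.9 and 51.8.

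The label of an epithelial colorectal cell was checked on other genes. Adhesion genes were well represented, with DSP (desmoplakin, the plakin that ties keratin to desmosomes) at mean levels of 199 RPM (experiment 1) and 329 RPM (experiment 2), the order of each pair that follows. The desmosome-associated PERP had 53.6 and 417 RPM, while CLDN1 had 0.0434 and 0.108 RPM. The splicing regulator of epithelia ESRP1 had 62.2 and 76.1 RPM, and KLF4, a factor of differentiating epithelium, had 16.5 and 101 RPM. Keratins of stratified or other epithelia lay below KRT8, KRT18 and KRT19. By RPM the highest was KRT80 in experiment 1 (16.0) and KRT10 in experiment 2 (43.7, against 6.54 in experiment 1). Per kilobase of span KRT10 was the highest in both, at medians of 1.47 and 11.2 RPM, against 0.714 and 1.12 for KRT80. KRT1 was at or near 0 in both. Intestinal genes, those of differentiated cells and the stem cell gene LGR5, were mostly near 0. In experiment 1, 15 of 16 had a mean under 0.5 RPM, and in experiment 2, 13 of 16. The goblet cell peptide TFF3 was at 0 in every library, and the carbonic anhydrase CA2 was the highest, at 7.99 and 21.6 RPM. The 9 leukocyte genes summed to 5.12 to 6.70 RPM in experiment 1 and 11.1 to 44.8 RPM in experiment 2, with the lysosomal CD68 the highest at a mean of 3.79 and 19.4 RPM. By RPM the 8 liver and neuron genes were led by the synaptic SYT1, at means of 363 and 41.0 RPM. Per kilobase of span SYT1 had medians of 0.686 and 0.0824 RPM, and in experiment 2 SERPINA1 was the highest, at 0.152.

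**Figure D1:**
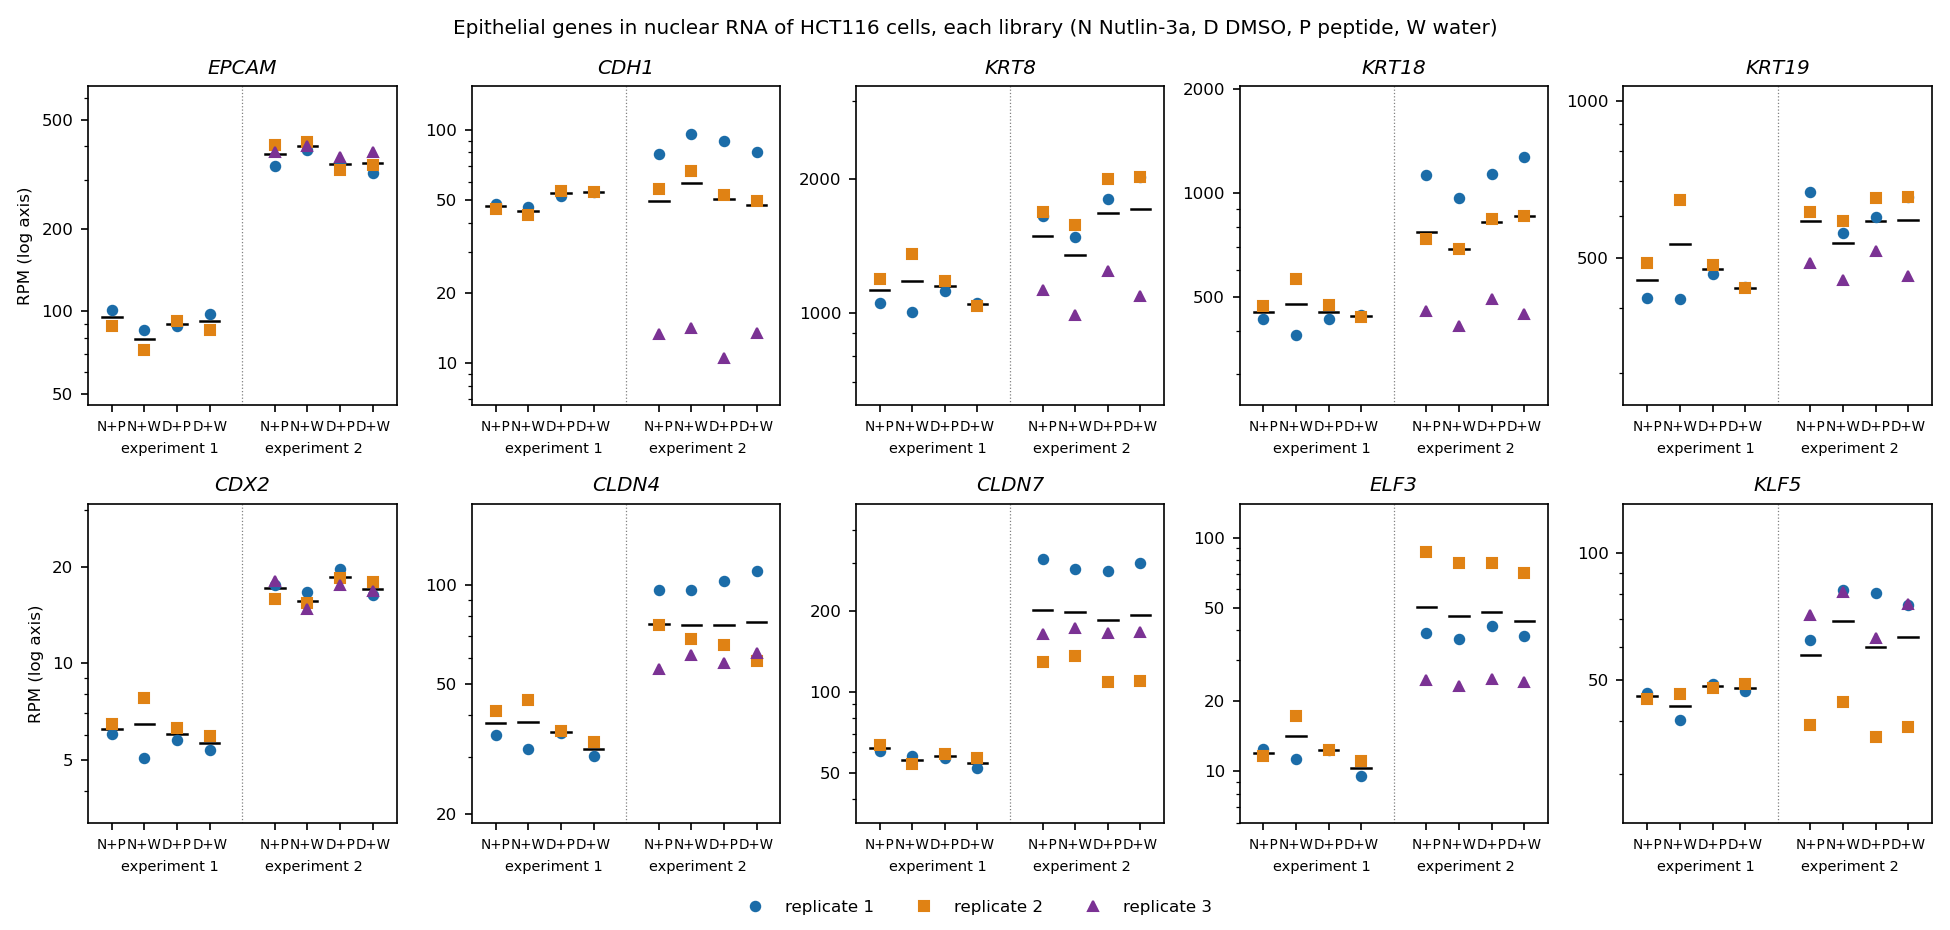
RPM of the 10 members on log axes, 1 point per library, with symbols for the replicate number and a black line at the mean of each group (n = 2 in experiment 1, n = 3 in experiment 2). In experiment 2 the points of most members, though not of EPCAM and CDX2, separate by replicate number more than by group, most widely in CDH1, where the 4 libraries numbered 3 had 10.5 to 14.2 RPM.

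The first comparison asked what Nutlin-3a did without peptide. KRT8 had 1004 and 1356 RPM in Nutlin-3a with water in experiment 1, against 1054 and 1037 RPM in DMSO with water. In experiment 2 KRT8 had 1483, 1576 and 990 RPM in Nutlin-3a with water, against 2016, 2021 and 1090 RPM in DMSO with water. The groups overlapped in both experiments, and the Nutlin-3a library was the lower of its pair in 4 of 5 replicate numbers. KRT18 had 389 and 565 RPM in Nutlin-3a with water in experiment 1, against 443 and 437 RPM in DMSO with water. In experiment 2 KRT18 had 969, 688 and 413 RPM in Nutlin-3a with water, against 1275, 857 and 447 RPM in DMSO with water. Again 4 of 5 Nutlin-3a libraries were the lower of their pair, and the exception in both keratins was the library of experiment 1 that stood apart.

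No member passed the test for Nutlin-3a against DMSO with water. A fit by limma over all 20 libraries, with a term for experiment, called 0 of 10 members at an adjusted p under 0.05, and 0.0% of the 15958 genes tested, on log2 of RPM scaled between libraries. At an unadjusted p under 0.05 it had 0 of 10 members and 0.627% of all genes. Log2 changes of the members were -0.11 (KRT18) to 0.19 (ELF3), with a median of 0.05, beside -0.03 over all genes. For KRT8 the change was -0.11 (95% interval -0.66 to 0.45) and for CDH1 0.06 (-1.27 to 1.40), so for CDH1 this fit bounds little. With each library left out in turn, the change ran from -0.35 to 0.50 in CDH1, lowest without replicate 3 of DMSO with water and highest without replicate 3 of Nutlin-3a with water, both of experiment 2. It ran from -0.0042 to 0.48 in ELF3, lowest without replicate 2 and highest without replicate 3 of Nutlin-3a with water of experiment 2. In KRT18 it ran from -0.32 to 0.14, lowest without replicate 3 and highest without replicate 1 of DMSO with water of experiment 2, so the sign of these changes depends on single libraries.

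When the replicate numbers were entered as blocks, intervals narrowed and calls did not change. In that fit CDH1 had a log2 change of 0.06 (95% interval -0.11 to 0.24), EPCAM 0.06 (-0.11 to 0.23), KLF5 0.04 (-0.16 to 0.24) and KRT18 -0.11 (-0.39 to 0.17), and the lowest and highest bounds over the 10 members were -0.40 (KRT8) and 0.47 (ELF3). It had 0 of 10 members at an unadjusted p under 0.05, beside 7.64% of all genes. Over the 5 pairs of the same number, 0 members were higher in all, beside 2.87% of all genes, and 0 were lower in all, beside 4.51%.

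The keratins depended on 1 library, the one with the most structural RNA and the fewest reads on long rows of experiment 1, whose part in the result was not tested. Without replicate 2 of Nutlin-3a with water in experiment 1, the fit with blocks gave KRT8 a log2 change of -0.27 (95% interval -0.50 to -0.04, adjusted p = 0.317 by limma) and KRT18 -0.28 (-0.47 to -0.09, adjusted p = 0.251). These were the 2 of 10 members below 0 at an unadjusted p under 0.05, a class that held 6.79% of all genes. In experiment 2 alone with blocks, KRT8 had -0.40 (-0.61 to -0.19) and KRT18 -0.36 (-0.55 to -0.17), each with an adjusted p of 0.0816 by limma. With KRT19 at -0.22 and CDX2 at -0.20 they made 4 of 10 members below 0 at an unadjusted p under 0.05, beside 11.5% of the 15731 genes of that fit. The same 4 were lower in 3 of 3 pairs of experiment 2, beside 20.2% of all genes, and 2 members, EPCAM and CDH1, were higher in 3 of 3 pairs, beside 20.1%. None of these members passed the adjusted test.

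KRT19 had 416 and 645 RPM in Nutlin-3a with water in experiment 1, against 439 and 437 RPM in DMSO with water. In experiment 2 KRT19 had 557, 588 and 454 RPM in Nutlin-3a with water, against 655, 653 and 461 RPM in DMSO with water. As in the other keratins, the 645 RPM came from the library that stood apart. CDX2 had 5.07 and 7.83 RPM in Nutlin-3a with water in experiment 1, against 5.37 and 5.94 RPM in DMSO with water. In experiment 2 CDX2 had 16.8, 15.4 and 14.8 RPM in Nutlin-3a with water, against 16.3, 18.002 and 16.8 RPM in DMSO with water. In unscaled RPM the CDX2 library of Nutlin-3a numbered 1 was thus the higher of its pair, and the count of 3 of 3 lower pairs holds for CDX2 only on scaled values. CLDN4 had 31.7 and 44.6 RPM in Nutlin-3a with water in experiment 1, against 30.1 and 33.1 RPM in DMSO with water. In experiment 2 CLDN4 had 96.5, 68.5 and 61.0 RPM in Nutlin-3a with water, against 109.96, 58.7 and 62.1 RPM in DMSO with water. Its pairs pointed both ways in experiment 2, and its groups overlapped in both experiments.

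**Figure D2:**
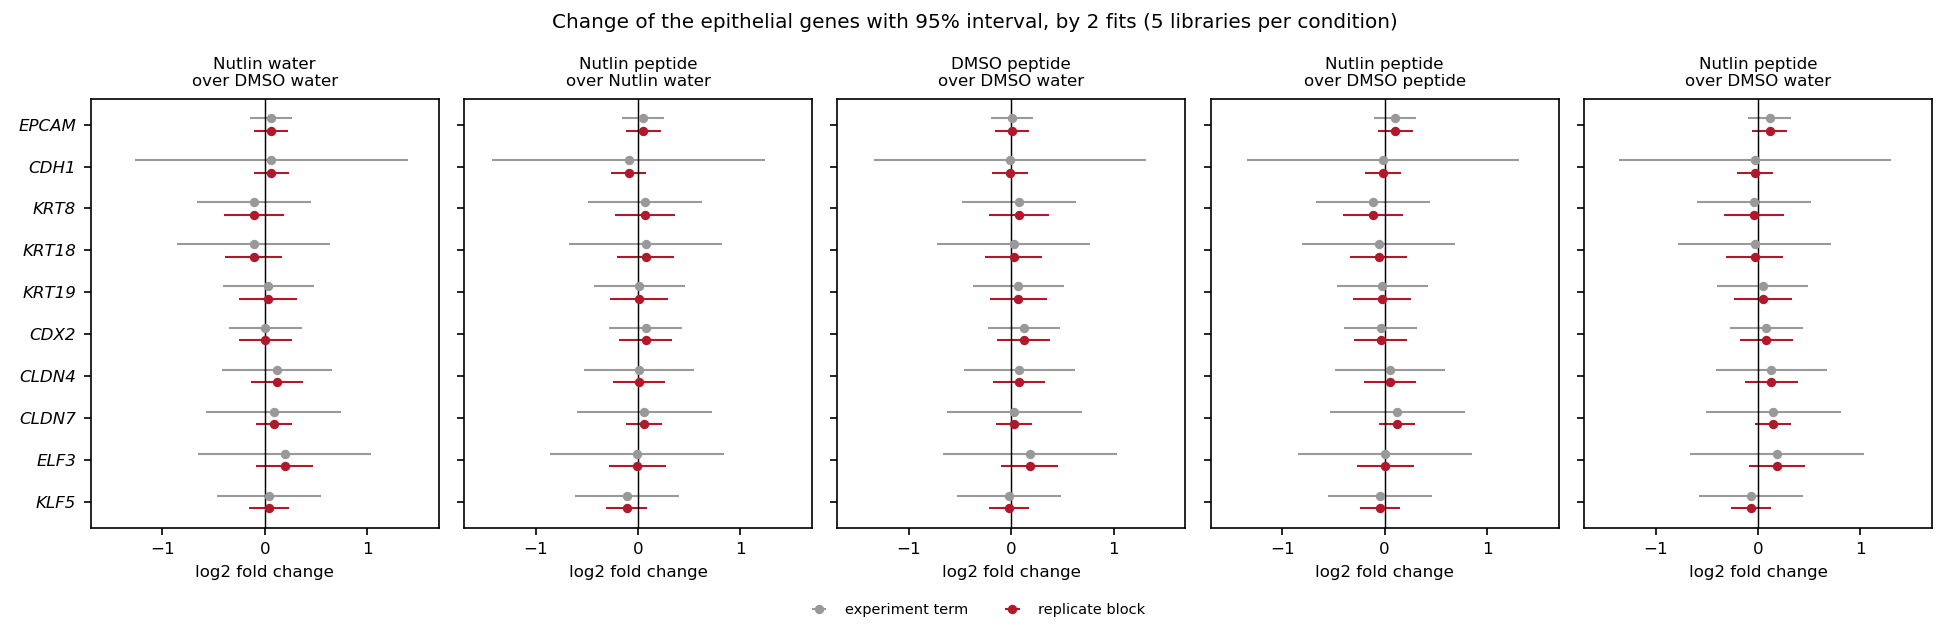
Log2 fold change of the 10 members in 5 comparisons, with 95% intervals from limma, in grey with a term for experiment and in red with the 5 replicate numbers as blocks (5 libraries per group). Every interval drawn includes 0, and those of CDH1 narrow most. For Nutlin-3a with water over DMSO with water the CDH1 interval is -1.27 to 1.40 in grey and -0.11 to 0.24 in red.

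The second comparison asked what the peptide did in Nutlin-3a. KRT8 had 1053 and 1192 RPM in Nutlin-3a with peptide in experiment 1, against 1004 and 1356 RPM in Nutlin-3a with water. In experiment 2 KRT8 had 1647, 1681 and 1124 RPM in Nutlin-3a with peptide, against 1483, 1576 and 990 RPM in Nutlin-3a with water. The groups overlapped, and the peptide library was the higher of its pair in 4 of 5 replicate numbers. CDH1 had 48.3 and 45.7 RPM in Nutlin-3a with peptide in experiment 1, against 46.7 and 43.3 RPM in Nutlin-3a with water. In experiment 2 CDH1 had 79.2, 55.8 and 13.4 RPM in Nutlin-3a with peptide, against 96.3, 66.7 and 14.2 RPM in Nutlin-3a with water. Here too the groups overlapped in experiment 2, with replicate numbers further apart than treatments.

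EPCAM had 101.5 and 88.5 RPM in Nutlin-3a with peptide in experiment 1, against 85.7 and 72.6 RPM in Nutlin-3a with water. In experiment 2 EPCAM had 338, 405 and 383 RPM in Nutlin-3a with peptide, against 386, 414 and 402 RPM in Nutlin-3a with water. The peptide library was the higher in both pairs of experiment 1 and the lower in all 3 pairs of experiment 2. KLF5 had 46.7 and 45.2 RPM in Nutlin-3a with peptide in experiment 1, against 40.3 and 46.6 RPM in Nutlin-3a with water. In experiment 2 KLF5 had 62.2, 39.2 and 71.4 RPM in Nutlin-3a with peptide, against 81.9, 44.4 and 81.2 RPM in Nutlin-3a with water. Its groups overlapped in both experiments, with the peptide library the lower in 4 of 5 pairs.

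No member passed for peptide against water in Nutlin-3a. The fit with a term for experiment called 0 of 10 members and 0.0% of all genes, and at an unadjusted p under 0.05 it had 0 members and 0.483% of all genes. Log2 changes were -0.11 (KLF5) to 0.08 (KRT18), with a median of 0.03, beside 0.04 over all genes. With blocks the lowest and highest bounds of the 95% intervals were -0.31 (KLF5) and 0.36 (KRT8), with 0 members at an unadjusted p under 0.05, beside 8.15% of all genes. Over 5 pairs, 0 members were higher in all, beside 4.86% of genes, and 0 lower in all, beside 2.53%. In 3 of 3 pairs of experiment 2, 5 members were higher with peptide (KRT8, KRT18, KRT19, CDX2 and ELF3), beside 14.7% of all genes, and 3 were lower (EPCAM, CDH1 and KLF5), beside 16.0%. These pairs share the Nutlin-3a with water libraries with the first comparison. Without the library that stood apart, the fit with blocks had 5 of 10 members above 0 at an unadjusted p under 0.05, beside 6.84% of all genes, namely KRT8, KRT18, KRT19, CDX2 and ELF3, with KRT18 at 0.25 (95% interval 0.06 to 0.43, adjusted p = 0.447 by limma).

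The third comparison asked what the peptide did without Nutlin-3a, and no member passed. EPCAM had 88.3 and 92.2 RPM in DMSO with peptide in experiment 1, against 98.1 and 85.5 RPM in DMSO with water. In experiment 2 EPCAM had 346, 327 and 364 RPM in DMSO with peptide, against 318, 343 and 380 RPM in DMSO with water. The groups overlapped in both experiments. ELF3 had 12.3 and 12.3 RPM in DMSO with peptide in experiment 1, against 9.53 and 11.1 RPM in DMSO with water. In experiment 2 ELF3 had 41.7, 77.9 and 24.8 RPM in DMSO with peptide, against 37.9, 70.2 and 24.1 RPM in DMSO with water. In experiment 2 the difference within each pair was small beside the distance between numbers. By limma 0 of 10 members and 0.0% of all genes were called, and at an unadjusted p under 0.05 it was 0 members and 0.1% of all genes, or 0 members and 1.05% with blocks. Log2 changes were -0.02 (KLF5) to 0.18 (ELF3), with a median of 0.05, beside 0.02 over all genes. CDX2 and ELF3 were higher with peptide in 5 of 5 pairs, 2 of 10 members beside 5.86% of all genes, with log2 changes of 0.12 (95% interval -0.14 to 0.38 with blocks) and 0.18 (-0.10 to 0.46). Lower in 5 of 5 pairs were 0 members, beside 3.28%.

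Nutlin-3a against DMSO in the presence of peptide gave log2 changes of -0.11 (KRT8) to 0.12 (CLDN7), with a median of -0.02, beside -0.01 over all genes. Nutlin-3a with peptide against DMSO with water gave -0.07 (KLF5) to 0.19 (ELF3), with a median of 0.06, beside 0.01. By limma 0 of 10 members and 0.0% of genes were called in both, and at an unadjusted p under 0.05 it was 0 members, beside 0.163% and 0.207% of genes, or 1.83% and 2.53% with blocks. In the first of these 0 members were higher in 5 of 5 pairs, beside 1.62% of genes, and 0 lower, beside 3.16%. In the second it was 0 higher, beside 2.9%, and 0 lower, beside 3.56%. CLDN7 had the smallest p with blocks in the second, at 0.15 (95% interval -0.03 to 0.33 with blocks). CLDN7 had 60.2 and 63.8 RPM in Nutlin-3a with peptide in experiment 1, against 52.0 and 57.0 RPM in DMSO with water, the higher in both pairs. In experiment 2 CLDN7 had 311, 129 and 164 RPM in Nutlin-3a with peptide, against 300, 110 and 167 RPM in DMSO with water, groups that overlapped. The interaction of Nutlin-3a and peptide had log2 values of -0.19 (ELF3) to 0.05 (KRT18), with 0 of 10 members and 0.0% of genes called by limma, and 0 members at an unadjusted p under 0.05, beside 0.163% of genes, or 1.8% with blocks.

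None of the related genes was called in any of the 5 comparisons by limma, with or without blocks, among 22 junction genes, 7 other keratins, 16 regulators, 2 intestinal and 8 mesenchymal genes tested. With the smallest p-values among junction genes, LSR, the angulin of tricellular junctions, had a log2 change of 0.25 ± 0.21 (SE) in Nutlin-3a against DMSO with water, and the polarity gene PARD3 had -0.20 ± 0.17. KRT10 had 0.45 ± 0.30 for peptide against water in Nutlin-3a, with an adjusted p of 0.602 by limma with blocks. The pioneer factor FOXA1 had 0.26 ± 0.16 and the endodermal factor GATA6 0.24 ± 0.17 in Nutlin-3a against DMSO with water. None of these changes was larger than the spread between libraries by the adjusted test. The Nutlin-3a with water library of experiment 1 that stood apart had 3.43 RPM of KRT10, the lowest of the 8 libraries of that experiment. It had 1.39 RPM of FOXA1 and 6.72 RPM of GATA6, the highest of the 8. Its part in these changes was not tested.

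Within experiment 2, variation among libraries followed the replicate number more than the treatment in 8 of 10 members, all but EPCAM and CDX2. Within experiment 2, the replicate number took 99.2% of the sum of squares of log2 scaled RPM in CDH1, 98.4% in ELF3, 97.8% in CLDN7, 93.4% in CLDN4, 93.0% in KRT18 and 92.8% in KLF5. It took 80.6% in KRT19, 80.5% in KRT8, 40.8% in CDX2 and 17.1% in EPCAM. The median over the members was 92.9%, beside 86.7% over all genes, so the members are not set apart by it. The group took 0.0841% (CLDN7) to 49.97% (CDX2), and 33.8% in EPCAM, with a median of 4.69% beside 5.33% over all genes. EPCAM and CDX2 had the lowest shares for the number, and of their variation over all 20 libraries 98.6% and 84.2% lay between experiments, the highest of the 10. The share of structural RNA and the separate normalization of the tables go with the experiment, and their part in these levels was not tested.

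**Figure D3:**
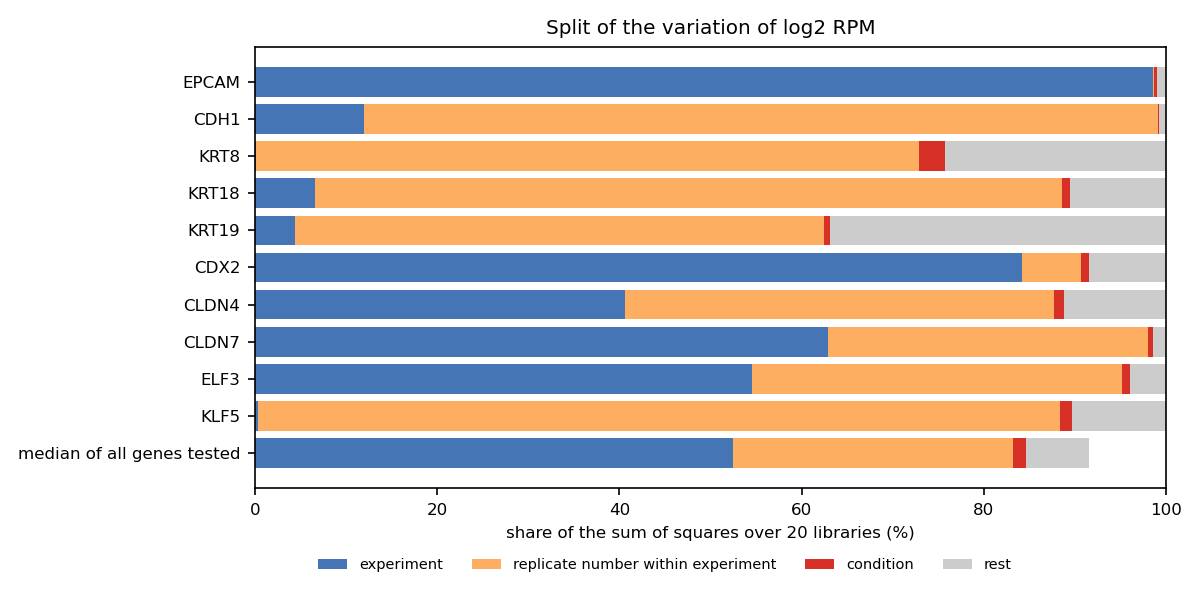
Share of the sum of squares of log2 scaled RPM over 20 libraries that goes with experiment, with replicate number within experiment, with group (condition) and with neither, for each member. The bottom bar gives the median over all genes tested for each component, so it does not add up to 100%. EPCAM is almost wholly blue (98.6% between experiments), CDH1 and KLF5 are mostly orange (replicate number), and the red part for the treatments is narrow throughout.

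The 4 libraries numbered 3 in experiment 2, 1 of each group, stood below the 8 others in 6 of 10 members on scaled values, beside 16.8% of all genes. They stood above in 0 of 10, beside 17.2%. The libraries numbered 3 were also the deepest, at 39324843 to 47407746 reads, against 18787172 to 27146864 reads in the 8 others, and the part of depth in this was not tested. CDH1 had 10.5 to 14.2 RPM (median 13.4) in the libraries numbered 3, against 49.4 to 96.3 RPM (median 73.0) in the 8 others, a 5.83-fold difference on the scaled values. ELF3 had 23.02 to 24.8 RPM (median 24.3) in the libraries numbered 3, against 36.7 to 87.2 RPM (median 55.9) in the others. KRT18 had 413 to 494 RPM (median 452) in the libraries numbered 3, against 688 to 1275 RPM (median 913) in the others. The 2 sets did not overlap in these 3 genes, and all 4 groups showed the difference, with peptide or water and with Nutlin-3a or DMSO.

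KRT8 had 990 to 1240 RPM in the libraries numbered 3, against 1483 to 2021 RPM in the others, and KRT19 had 454 to 516 RPM, against 557 to 667 RPM. CLDN4 had 55.5 to 62.1 RPM in the libraries numbered 3, against 58.7 to 110 RPM in the others. CLDN4 overlapped in RPM and was separate only on scaled values, so without scaling 5 of 10 members stood below, beside 11.8% of all genes, and 0 above, beside 22.7%. The median log2 difference over all genes was 0.01 with scaling and 0.16 without, and over the members -0.59 with scaling and -0.42 without. No test is given, since the libraries of a number may share a source that the labels do not name.

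In the other 4 members the sets overlapped. EPCAM had 364 to 402 RPM in the libraries numbered 3, against 318 to 414 RPM in the others. CDX2 had 14.8 to 18.1 RPM, against 15.4 to 19.6 RPM. CLDN7 had 164 to 172 RPM in the libraries numbered 3, between 282 to 311 RPM in those numbered 1 and 109 to 135 RPM in those numbered 2. KLF5 had 63.1 to 81.2 RPM in the libraries numbered 3, within 62.2 to 81.9 RPM in those numbered 1 and above 36.7 to 44.4 RPM in those numbered 2. The numbers thus differed from each other in several ways, and libraries numbered 1 stood above the other 8 in 4 of 10 members, beside 15.1% of all genes, and below in 0, beside 17.6%. Libraries numbered 2 stood below the other 8 in 2 members, beside 17.6%, and above in 1, ELF3, beside 20.3%.

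Related epithelial genes divided in the same libraries. Of 22 junction and adhesion genes tested, 14 stood below in the libraries numbered 3 and 1 above, beside 16.8% and 17.2% of all genes. Without scaling it was 11 below and 1 above, beside 11.8% and 22.7%. The one above was PERP, at 601 to 643 RPM in the libraries numbered 3, against 226 to 440 RPM in the others. P-cadherin, CDH3, had 45.3 to 52.9 RPM in the libraries numbered 3, against 109 to 159 RPM in the others, and DSP had 172 to 206 RPM, against 344 to 453 RPM. Of 7 other keratins, 4 stood below and 0 above, beside the same 16.8% and 17.2% of all genes. Of 16 regulators, 9 stood below and 0 above, with 2 above without scaling, beside the shares just given. The epithelial ETS factor EHF had 0.198 to 0.425 RPM in the libraries numbered 3, against 7.11 to 24.5 RPM in the others. CDH3 and EHF, and below VIM, SNAI2, ACTA2, TWIST1 and CDH2, were named after their values were seen.

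The 12 mesenchymal genes summed to 100.6 to 120.0 RPM in the libraries numbered 3, against 45.1 to 91.4 RPM in the others. Of 8 that could be tested, 4 stood above in the libraries numbered 3 and 2 below, with and without scaling. Over all genes 17.2% stood above and 16.8% below with scaling, and 22.7% and 11.8% without. The intermediate filament vimentin, VIM, had 11.5 to 12.9 RPM in the libraries numbered 3, against 0.885 to 1.31 RPM in the others. The repressor ZEB1 had 34.9 to 48.2 RPM, against 8.56 to 23.3 RPM, SNAI1 had 14.5 to 15.7 RPM, against 3.57 to 8.68 RPM, and SNAI2 had 5.34 to 6.21 RPM, against 0.105 to 0.546 RPM. The matrix genes FN1 and SPARC were the 2 below. FN1 had 14.9 to 17.7 RPM in the libraries numbered 3, against 19.9 to 23.7 RPM in the others. SPARC had 0.395 to 0.570 RPM, against 0.682 to 2.41 RPM. ACTA2 and TAGLN overlapped. Among genes too low to test, TWIST1 was at 0 in the libraries numbered 3, against 0.373 to 1.10 RPM in the others. The mesenchymal cadherin CDH2, also too low to test, was at 0 to 0.0633 RPM in the libraries numbered 3. In experiment 1, VIM had 0.771 to 2.55 RPM, SNAI2 0.130 to 0.360 RPM, EHF 12.6 to 17.8 RPM and ZEB1 21.5 to 60.2 RPM. These levels are not on the same footing as those of experiment 2. The ZEB1 row is longer than 100 kb. Rows over 100 kb took 10.1 to 20.3% of reads in experiment 1, against 8.80 to 10.8% in experiment 2.

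Markers of other cells in the libraries numbered 3 were mixed. Of 10 fibroblast and endothelial genes, 3 could be tested, and 2 stood above and 0 below, beside 17.2% and 16.8% of all genes. COL1A1 had 53.3 to 88.6 RPM in the libraries numbered 3, against 19.3 to 43.3 RPM in the others, and PDGFRB had 3.21 to 3.54 RPM, against 0 to 0.364 RPM. The fibroblast collagen COL1A2 had 0 to 0.0211 RPM and COL3A1 0 to 0.0709 RPM in the libraries numbered 3, at or near 0. Of 9 leukocyte genes, 3 could be tested and 0 stood above or below, and the leukocyte antigen PTPRC had 0 to 0.0844 RPM. The 10 fibroblast and endothelial genes together, mostly COL1A1, summed to 58.8 to 94.0 RPM in the libraries numbered 3, against 19.9 to 46.9 RPM in the others. The 9 leukocyte genes summed to at most 25.1 RPM in the libraries numbered 3, within the 11.1 to 44.8 RPM of the others. The part of a different source of cells in the libraries numbered 3 was not tested, and in such bulk RNA fewer cells of a type and less RNA per cell cannot be told apart.

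**Figure D4:**
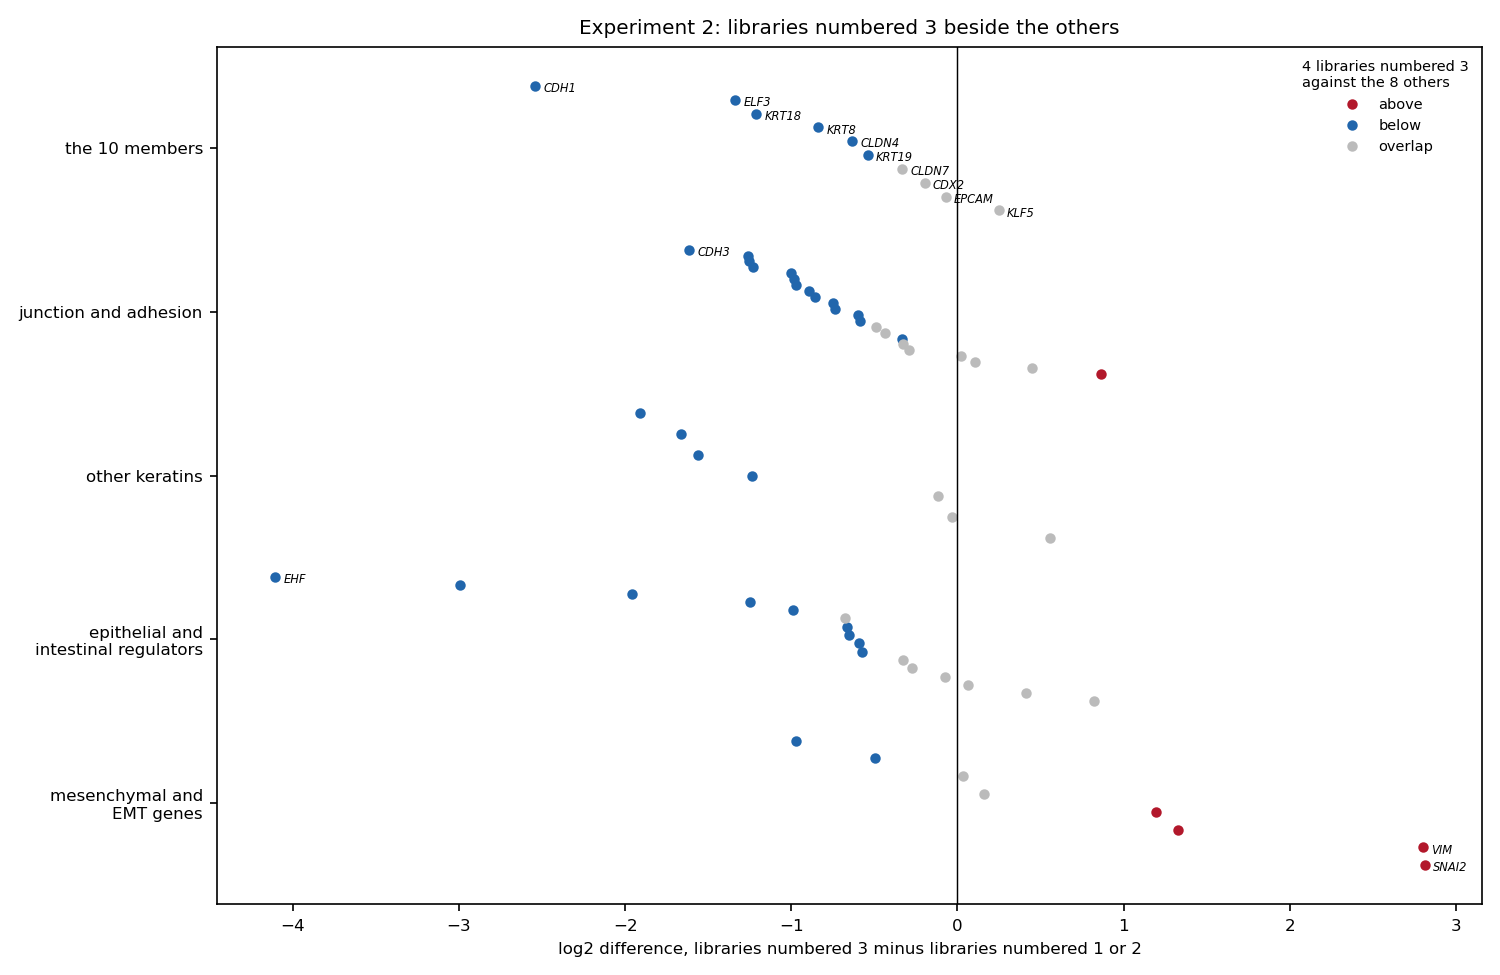
Difference between the 4 libraries numbered 3 and the 8 libraries numbered 1 or 2 of experiment 2, as the mean on log2 of scaled RPM, for each tested gene of 5 lists. Blue genes lay below all 8 other libraries, red genes above all 8, and grey genes overlapped. Colours follow scaled values, and without scaling CLDN4 and 3 of the blue junction genes overlap. The members run from CDH1 at -2.54 to KLF5 at 0.25, with the regulator EHF at -4.11 and the mesenchymal VIM and SNAI2 at 2.80 and 2.81.

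The members did not vary as 1 block. Over the 12 libraries of experiment 2, KRT8 and KRT19 correlated at 0.978, CDH1 and KRT18 at 0.929, and ELF3 and KLF5 at -0.705. These are descriptions of libraries that share replicate numbers and carry no p. With the mean of all 10 members, which contains each of them, KRT18 correlated at 0.982 over the 8 libraries of experiment 1 and 0.987 over the 12 of experiment 2, while KLF5 had 0.904 and 0.116 and EPCAM 0.338 and 0.315. Among 10303 other genes whose mean reached 10 RPM, the 5 most like the mean of the members were HOXB9 (0.9749 in experiment 1 and 0.984 in experiment 2), PYCR1 (0.983 and 0.970), NR4A3 (0.968 and 0.983), RBM15B (0.988 and 0.964) and HS3ST1 (0.964 and 0.966). The library of experiment 1 that stood apart is in these values, with KRT19 at 645 RPM where the other 7 libraries had 416 to 489 RPM, and its part in them was not tested.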

How the data were processed

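Nuclear RNA of 20 libraries was deposited as 1 table per experiment, with 1 RefSeq isoform per symbol. Per the submitters' processing notes, the tools were HISAT2, bedtools and limma and the build hg38, with no version or role given, and strand handling in counting is not given in the sources used here. The deposited values are a score: RPM, as defined above, over a divisor of the row, the stop in bases less the start in kilobases. This was found from the values. With the authors' divisor removed, 100% of values were whole reads within 0.001. Cells with 1 µM peptide, named in the labels' protocol, are not analysed here. This unit is not the one assumed when the design was written, and the test planned for normalized values was kept.

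RPM was scaled by a trimmed mean of M values (TMM, trims of 30% and 5%), 0.5 was added before log2, and the 15958 genes whose mean reached 0.5 RPM were tested by limma 3.58.1 in R 4.3.3, with trend, a term for group and one for experiment, and Benjamini-Hochberg adjustment per comparison. Genes with an adjusted p under 0.05 are called. All 10 members passed the filter. The procedure was run on simulated data, but the outcome is not given here and is not taken as a check of the calls. The fit with a term for experiment has no term for replicate number, and how it performs under such differences is not shown. Intervals are 95%. Plots were drawn in Python 3.11.15 with matplotlib 3.10.9. Positions and coding ends were matched to GENCODE release 29 transcripts.

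No label says that a replicate number pairs libraries, and the pairing used comes from the values: deviations of same-numbered libraries from their group means correlated at 0.286 to 0.586 in experiment 1, where the 2 replicates of a group mirror each other and both numbers give the same value, and at 0.877 to 0.940 over the 18 pairs of experiment 2. Besides the members, the rule for named genes took from each list up to 4 genes with the smallest p and those at the highest and lowest level (for other cell types also those near 0), and the 5 genes most like the members. Members, lists and rules were chosen with earlier results of these data known. Other settings were other scalings, filters and pseudocounts, limma-voom on whole reads, blocks, each experiment alone, structural rows left out and each library left out in turn. Those without the libraries numbered 3 of experiment 2, blocks with limma-voom, and the test between experiments were chosen after seeing the data.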

Additional observations from a re-analysis of the deposited data

Results flagged for a closer look

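In 5 cases, over 10 members and 5 comparisons, every pair of one experiment lay on one side of 0 and every pair of the other on the other side. The share of all genes under this rule was not computed, so the count is not read as a result about the members. Values are on log2 scaled RPM, as experiment 2 minus experiment 1. The difference itself was tested by limma with a term for each of the 8 groups. EPCAM differed by -0.3238 for peptide against water in Nutlin-3a, with pairs at 0.38 and 0.11 in experiment 1 and at -0.12, -0.03 and -0.08 in experiment 2 (adjusted p = 1.00, and 0.195 with blocks). For Nutlin-3a against DMSO with peptide, KRT8 differed by -0.3545 (pairs at 0.03 and 0.17 against -0.17, -0.31 and -0.28, adjusted p = 0.486 with blocks by limma). In that comparison KRT18 differed by -0.3187 (adjusted p = 0.546 with blocks by limma) and CDX2 by -0.3645 (adjusted p = 0.475 with blocks by limma). KLF5 differed by -0.28 for Nutlin-3a with peptide against DMSO with water (adjusted p = 0.519 with blocks by limma). No difference passed the test. The rule leaves out larger differences for Nutlin-3a against DMSO with water. There, by limma with blocks, 6 members had an unadjusted p under 0.05, beside 4594 of the 15958 genes. KRT8 differed most, by -0.74 (adjusted p = 0.105 with blocks by limma). The library of experiment 1 that stood apart is in that comparison. The replicates of the experiments also differ in structural RNA and in number, and their part was not tested. Groups of 2 or 3 libraries are too small for a check of a single value against its group, and none was made.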

How the results depend on the processing

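The number of members called was 0 in every comparison under each of the 38 other settings, including the fit with a replicate block, limma-voom, each experiment alone and fits without the libraries numbered 3 of experiment 2. The smallest adjusted p of a member over these was 0.0816, for KRT8 and KRT18 in Nutlin-3a against DMSO with water in experiment 2 alone with a replicate block. The replicate block left the medians as they were, at 0.05 for Nutlin-3a against DMSO with water, and narrowed the intervals.

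Of the median log2 changes of the members over these 38 settings and 5 comparisons, 6 moved beyond the spread between pairs and 184 did not. For Nutlin-3a against DMSO with peptide it was 0.12 in experiment 1 alone, with and without a replicate block, against -0.02 over both experiments. With each library left out in turn, the medians ran from -0.086 to 0.16 in that comparison, where the highest was without replicate 3 of Nutlin-3a with peptide of experiment 2. They ran from -0.045 to 0.23 for peptide against water in DMSO, against 0.05 with all libraries, with -0.045 without replicate 1 and 0.16 without replicate 3 of DMSO with peptide of experiment 2, and 0.23 without replicate 1 of DMSO with water of experiment 2. They ran from -0.025 to 0.16 for Nutlin-3a against DMSO with water, from -0.11 to 0.18 for peptide against water in Nutlin-3a, and from -0.041 to 0.19 for Nutlin-3a with peptide against DMSO with water. Of the values of single members, 60 moved and 1840 did not. The cause was not tested. The fewest reads on a member in a library were 197 (CDX2). The limits are 2 or 3 libraries per group and experiment and, in 8 of 10 members, replicate numbers that differ more than treatments in experiment 2.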
